A study of Homo sapiens with 3 samples.

Results

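The zinc finger genes of chromosome 19 were the protein-coding genes of GENCODE release 44 on that chromosome whose symbol is ZNF followed by a number and at most 1 letter. This rule took 246 of the 20033 protein-coding genes of the annotation. The 1230 other coding genes of chromosome 19 and the 262 genes of the same symbol pattern on other chromosomes served for comparison. Chromatin immunoprecipitation followed by sequencing (ChIP-seq) had been performed on wild-type neural stem cells (hNSCs) that had been made from the established human embryonic stem cell line H9. All cells were fixed with disuccinimidyl glutarate and then formaldehyde, and the chromatin was precipitated with antibodies against CHD8 or TRRAP or with control IgG. Each antibody had 1 library. The CHD8 peak list (23393 peaks, 1438 of them on chromosome 19) and the TRRAP peak list (14735 peaks, 803 on chromosome 19) were analysed; the control library was not analysed here. Peak lists hold no expression values, so the cell type was not checked against its markers. Without replicates no test was possible, and every interval below is a 95% interval that covers counting error over genes or peaks only.

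C2H2 zinc finger genes are the largest family of transcription factor genes in the human genome, and many of them lie in tandem clusters on chromosome 19 that arose by repeated local duplication. Most members of these clusters encode KRAB zinc finger proteins, in which an array of fingers encoded by the last exon binds DNA and the KRAB domain recruits the corepressor KAP1 (TRIM28). Many silence transposable elements, and in other cell types the finger-coding exons of the genes themselves carry repressive chromatin. CHD8 is a chromatin remodeler that binds many active promoters, and TRRAP holds together several histone acetyltransferase complexes and links them to transcription factors such as MYC and E2F.

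The proteins matched that description. A KRAB word (a short stretch typical of the KRAB A-box) was found in the translated canonical coding sequence of 207 of the 246 genes (84.1%), and the genes held a median of 12 finger words (1 to 36). Their median span was 20.9 kb and their median last exon 3.38 kb, against 12.2 kb and 0.701 kb for the other coding genes of the chromosome.

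CHD8 occupied most of these promoters. A peak overlapped the promoter window, 1 kb on each side of the start of the canonical transcript, by at least 1 bp in 209 of 246 genes (85.0%, Wilson interval 80.0 to 88.9%), where 55.9% of all coding genes had one. Among the other coding genes of chromosome 19 the number was 650 of 1230 (52.8%, 50.1 to 55.6%), a difference of 32.1 percentage points (Newcombe interval 26.4 to 36.9). Of the genes of the same symbol pattern on other chromosomes, 217 of 262 (82.8%) carried a CHD8 peak, and the difference from them, 2.13 points (-4.32 to 8.52), reached across 0. A library of many cells does not tell a peak present in some of them from a weaker one present in all.

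TRRAP was found at fewer of them, in a list with a limit unlike that of CHD8. The names of the lists give a false discovery rate of 0.0001 for CHD8 and 0.001 for TRRAP. A TRRAP peak lay at 99 of 246 promoters (40.2%, 34.3 to 46.5%), with 34.9% over all coding genes, 351 of 1230 (28.5%) over the other coding genes of chromosome 19 and 126 of 262 (48.1%) over the genes of the pattern on other chromosomes. The difference from the rest of the chromosome was 11.7 points (5.24 to 18.4), but it was 1.22 points (-3.54 to 6.81) when only the peaks above the median rank of each list were counted. The difference from the zinc finger genes elsewhere was -7.85 points (-16.3 to 0.789). A q-value of at most 0.0001 kept 14712 of the 14735 TRRAP peaks. With these the share was again 40.2%, and the difference from the rest of the chromosome was 11.8 points (5.32 to 18.5).

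**Figure D1:**
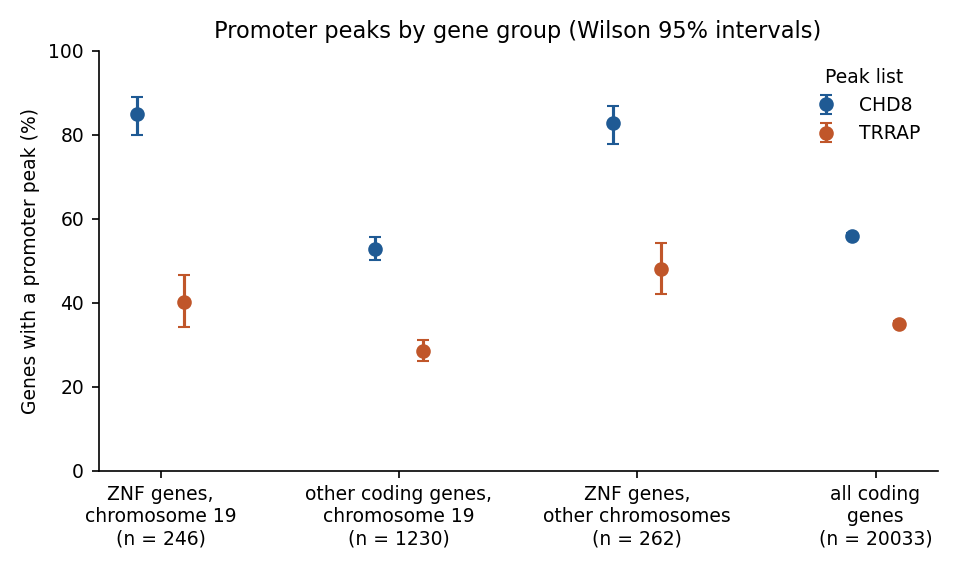
Share of genes with a CHD8 (blue) or TRRAP (orange) peak at the promoter, in percent, for 4 gene groups, with Wilson 95% intervals. The zinc finger genes of chromosome 19 stand at 85.0% for CHD8 and 40.2% for TRRAP, beside 52.8% and 28.5% for the other coding genes of the chromosome.

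Of the 99 promoters with TRRAP, 98 also held CHD8, as did 97.2% of those over all coding genes, 96.6% over the other chromosome 19 genes and 99.2% over the zinc finger genes elsewhere. Both peaks were present at 98 genes, CHD8 alone at 111, TRRAP alone at 1 (ZNF765) and neither at 36, and 34.0% of all coding genes had both. Among the genes with CHD8, TRRAP accompanied it in 46.9% (40.2 to 53.7%), against 52.2% of the other chromosome 19 genes with CHD8 (difference -5.26 points, -12.9 to 2.51) and 57.6% of the zinc finger genes with CHD8 elsewhere (difference -10.7 points, -19.9 to -1.23). Over all coding genes with CHD8 the share was 60.7%. With only the peaks above the median rank of each list, the difference from the other chromosome 19 genes was -12.6 points (-19.7 to -4.54), below 0 over its whole interval. In 96 of the 98 genes with both, a CHD8 and a TRRAP peak shared at least 1 bp, and the distance between their strongest summits had a median of 92.0 bp, with quartiles of 34.0 and 155 bp.

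The strength of the peaks is given by the fold, the authors' own ratio of peak signal to the background that the caller estimated, which is used here only to describe and rank peaks within a list. CHD8 folds at these promoters ran from 5.77 to 55.7 with a median of 12.4 over 209 genes, close to the median of 12.8 over the 650 other genes of the chromosome. TRRAP folds ran from 5.30 to 26.3 with a median of 8.17 over 99 genes, and the 351 other genes had a median of 8.65. The 98 genes with both peaks had a median CHD8 fold of 15.3, and the 111 with CHD8 alone had 10.6. Across the 98 genes the folds of the peak pairs showed Pearson r = -0.15 on the log2 scale and Spearman rho = -0.14, a description across genes that share both libraries.

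The CHD8 peak was strongest at ZNF274 (chr19:58182739-58183773), with a fold of 55.7, a −log10 q of 184 and rank 81 in the list. ZNF274 encodes a KRAB zinc finger protein known to bind the 3′ ends of other zinc finger genes and to recruit KAP1 there. ZNF524 followed with a fold of 53.5 (chr19:55599073-55600762) at a start region that it shares with the divergent gene FIZ1. ZNF264 had 47.3 (chr19:57191269-57192298), ZNF562 had 46.9 (chr19:9674490-9675475) and ZNF507 had 44.7 (chr19:32345365-32346221). All 5 of these promoters also carried TRRAP, at folds of 10.6 for ZNF274, 14.4 for ZNF524, 8.17 for ZNF264, 9.12 for ZNF562 and 6.73 for ZNF507, so none of them was among the 5 strongest for TRRAP.

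The TRRAP peak was strongest between ZNF565 and ZNF146, a divergent pair that shares it (chr19:36214872-36215452, fold 26.3, rank 355 in the list). ZNF146 encodes a protein that consists almost wholly of fingers, and no KRAB word was found in it. The CHD8 peak of the pair, also shared, had a fold of 26.1. ZNF77 came next with a TRRAP fold of 25.8 (chr19:2945110-2945616) beside a CHD8 fold of 7.98. ZNF234 had 23.5 for TRRAP (chr19:44141320-44141753) and 9.31 for CHD8. ZNF558, which starts opposite MBD3L1, had 23.5 for TRRAP (chr19:8832024-8832444) and 12 for CHD8. At ZNF77, ZNF234 and ZNF558 the CHD8 fold was thus below the median of the 209 genes. The single gene with TRRAP alone was ZNF765, where the TRRAP peak (chr19:53395049-53395239) had a fold of 8.65 and a summit 24 bp before the start.

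The promoters of ZNF274, ZNF77, ZNF565 and ZNF765 are shown for the strongest CHD8 peak, the strongest TRRAP peaks and the TRRAP peak without CHD8. They are RefSeq sequences on GRCh38.p14, 5′ to 3′ on the gene's strand, from 250 bases before to 50 after the RefSeq start: ZNF274 at chr19:58182811-58183110 (plus strand), ZNF77 at chr19:2944922-2945221 (minus), ZNF565 at chr19:36215035-36215334 (minus, where the RefSeq start lies 419 bp from the GENCODE start) and ZNF765 at chr19:53394899-53395198 (plus). Capitals mark matches on either strand to words searched in all promoters, here the SP word GGGCGG, the NFY word CCAAT, the ETS word CCGGAAGT and the E-box CACGTG.
ZNF274: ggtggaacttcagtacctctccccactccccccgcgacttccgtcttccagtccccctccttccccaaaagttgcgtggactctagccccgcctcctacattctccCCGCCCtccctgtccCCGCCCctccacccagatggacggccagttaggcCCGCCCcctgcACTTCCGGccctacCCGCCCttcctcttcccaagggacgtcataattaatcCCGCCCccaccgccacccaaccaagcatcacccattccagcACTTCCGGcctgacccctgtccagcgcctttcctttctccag
ZNF77: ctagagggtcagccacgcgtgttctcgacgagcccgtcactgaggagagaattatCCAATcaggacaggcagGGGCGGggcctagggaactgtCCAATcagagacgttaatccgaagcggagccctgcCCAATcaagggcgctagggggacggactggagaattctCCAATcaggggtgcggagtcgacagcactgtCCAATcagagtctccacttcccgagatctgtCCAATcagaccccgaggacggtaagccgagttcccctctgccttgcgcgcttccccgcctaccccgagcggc
ZNF565: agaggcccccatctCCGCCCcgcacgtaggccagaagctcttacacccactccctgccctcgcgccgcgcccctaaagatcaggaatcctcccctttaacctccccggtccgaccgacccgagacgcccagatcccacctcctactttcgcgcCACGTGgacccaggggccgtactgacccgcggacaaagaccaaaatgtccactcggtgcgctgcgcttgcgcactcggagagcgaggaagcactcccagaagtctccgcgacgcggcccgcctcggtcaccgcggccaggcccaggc
ZNF765: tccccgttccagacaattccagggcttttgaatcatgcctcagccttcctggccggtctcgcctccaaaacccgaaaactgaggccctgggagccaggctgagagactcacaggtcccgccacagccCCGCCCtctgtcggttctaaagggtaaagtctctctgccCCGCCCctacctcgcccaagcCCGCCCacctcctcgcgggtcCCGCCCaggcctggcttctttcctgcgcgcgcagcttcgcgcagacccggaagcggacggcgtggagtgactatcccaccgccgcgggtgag
ZNF274 held 5 matches to the SP word and 2 to the ETS word. ZNF77 held 6 matches to CCAAT. For ZNF274 and for ZNF77 the strongest CHD8 and TRRAP summits lay outside the bases shown. In the ZNF565 run the CHD8 summit fell at base 141 and the TRRAP summit at base 142, ahead of the E-box. In the ZNF765 run the TRRAP summit fell at base 227.

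Among the genes fixed as a panel for their known roles, occupancy was uneven. ZNF91, which represses SVA retrotransposons, had both peaks (CHD8 fold 16.4, TRRAP fold 8.17). ZNF93, which represses LINE-1 elements, had CHD8 at 11.1 and no TRRAP. ZNF431 had both (15.5 and 5.30), as did ZNF568 (13.7 and 7.69), whose mouse counterpart represses a placental Igf2 transcript. ZNF382 had CHD8 alone (8.87). ZNF534 had neither. ZNF536, a gene without a KRAB word that is known as a negative regulator of neuronal differentiation, also had neither at its start. The imprinted gene ZNF331 had neither at its canonical start, and CHD8 with a fold of 16.4 at another annotated start.

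**Figure D2:**
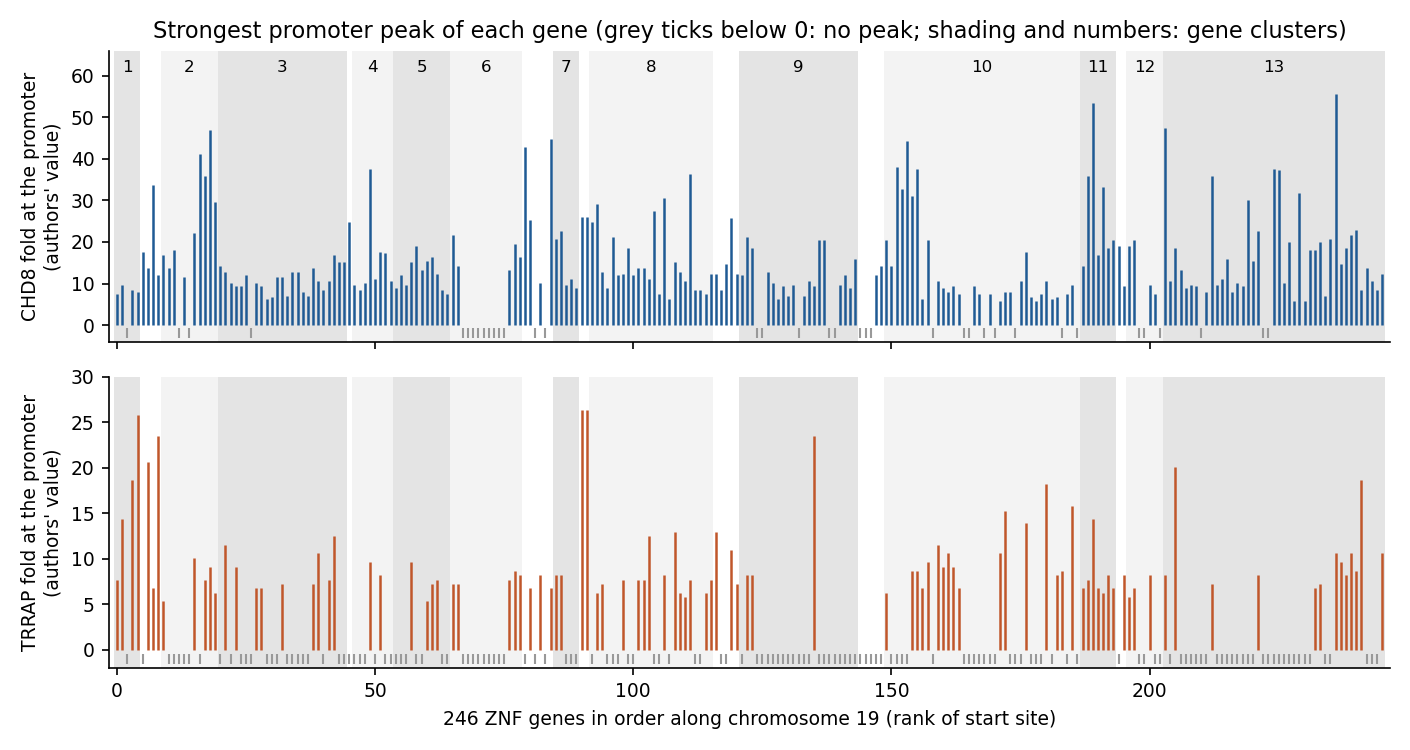
Fold of the strongest CHD8 peak (upper panel) and TRRAP peak (lower panel) at the promoter of each of the 246 genes, in order along chromosome 19. Grey ticks below 0 mark genes without a peak, and shaded blocks with numbers are the 13 clusters; the unbroken row of ticks in cluster 6 is the run of 9 genes from ZNF208 to ZNF728.

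The summits sat near the start site. For CHD8 the median summit lay 25 bp downstream of the start (25th to 75th percentile -82.0 to 109 bp), and 89.0% of the 209 strongest summits were within 250 bp, against 69.2% for the other genes of the chromosome, 74.7% for all coding genes and 78.8% for the zinc finger genes elsewhere. For TRRAP the median was 19 bp downstream, with 78.8% of 99 summits within 250 bp, against 59.8%, 69.4% and 69.0% in the same order. The peaks had median widths of 594 bp for CHD8 and 250 bp for TRRAP. These were above the medians over all peaks of each list, 376 bp and 229 bp, and below those at the promoters of all coding genes, 638 bp and 269 bp. Repeated sequence rarely lay under the summits: 4 of 209 CHD8 summits and 2 of 99 TRRAP summits had more than 1 genomic copy, by the median number of occurrences of the 32-base words around the summit. These shares, 1.91% and 2.02%, stood beside 1.69% and 1.27% over all coding genes with a peak. They were 0.462% and 0.570% for the other genes of the chromosome and 3.69% and 1.59% for the zinc finger genes elsewhere.

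**Figure D3:**
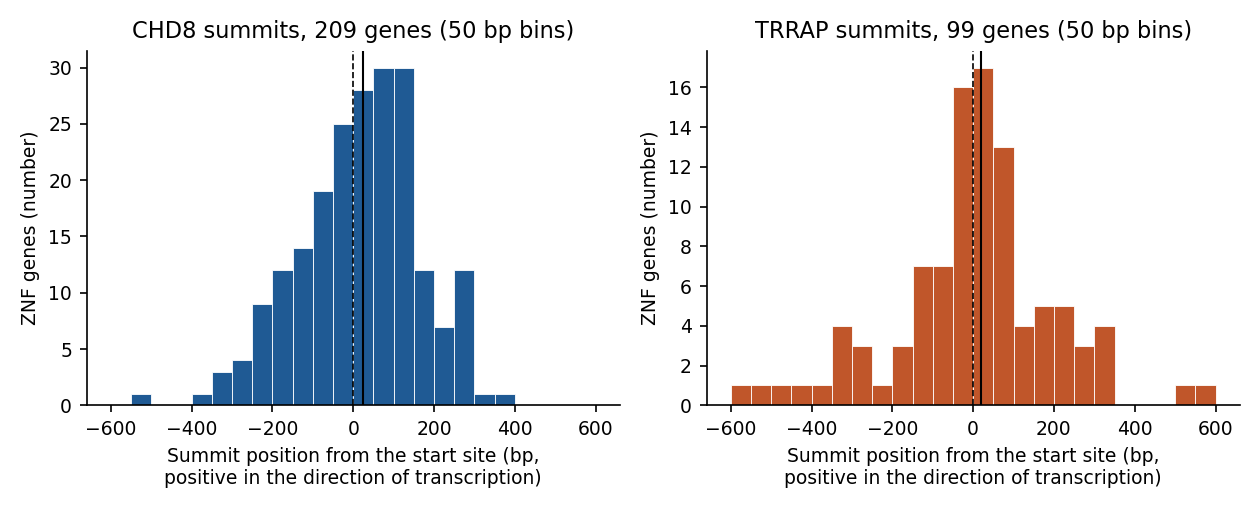
Position of the strongest CHD8 summit (209 genes) and TRRAP summit (99 genes) relative to the start site in bp, positive in the direction of transcription, in 50 bp bins. The dashed line is the start and the solid line the median, at 25 bp for CHD8 and 19 bp for TRRAP.

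The promoters were next compared at like CpG content, since the shares with CHD8 and with TRRAP were higher at a higher CpG ratio (observed over expected CpG within 500 bp of the start). The median ratio was 0.711 in the zinc finger genes and 0.654 in the other genes of the chromosome. At a ratio of at least 0.75, CHD8 was present at 77 of 83 zinc finger promoters (92.8%) and at 87.6% of 410 other promoters, a difference of 5.21 points (-2.96 to 10.5). Between 0.5 and 0.75 the shares were 82.8% of 145 and 69.1% of 379 (difference 13.6 points, 5.36 to 20.8). Between 0.25 and 0.5, CHD8 was present at 12 of 15 zinc finger promoters (80.0%) and at 28 of 279 others (10.0%), a difference of 70.0 points (44.4 to 83.3). The 12 genes were ZNF486, ZNF737, ZNF626, ZNF66, ZNF85, ZNF714, ZNF43, ZNF724, ZNF675, ZNF254, ZNF579 and ZNF587B, named after their values were seen. The highest CHD8 fold among them was 42.9, at ZNF675. Of the 13 zinc finger genes elsewhere in this range, 4 had CHD8. In the higher ranges their shares were close to those on chromosome 19, at 81.4% of 97 between 0.5 and 0.75 and 95.7% of 139 at 0.75 and above. Over all coding genes the shares were 12.8% between 0.25 and 0.5, 65.1% between 0.5 and 0.75 and 81.2% at 0.75 and above.

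For TRRAP the difference at like CpG ratio had an interval above 0 in 1 of the 4 ranges. Between 0.25 and 0.5, 5 of 15 zinc finger promoters (33.3%) and 9 of 279 others (3.23%) had a peak, a difference of 30.1 points (11.7 to 55.1). From 0.5 to 0.75 the shares were 35.2% and 32.2% (2.98 points, -5.79 to 12.2), and at 0.75 and above they were 51.8% and 53.4% (-1.61 points, -13.2 to 9.89). In the same order of ranges, TRRAP was at 4.95%, 33.2% and 56.2% of the promoters of all coding genes. For the zinc finger genes elsewhere it was at 0 of 13, 39.2% and 63.3%. Below 0.25 there were only 3 zinc finger genes, ZNF676, ZNF404 and ZNF536, none with either peak.

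**Figure D4:**
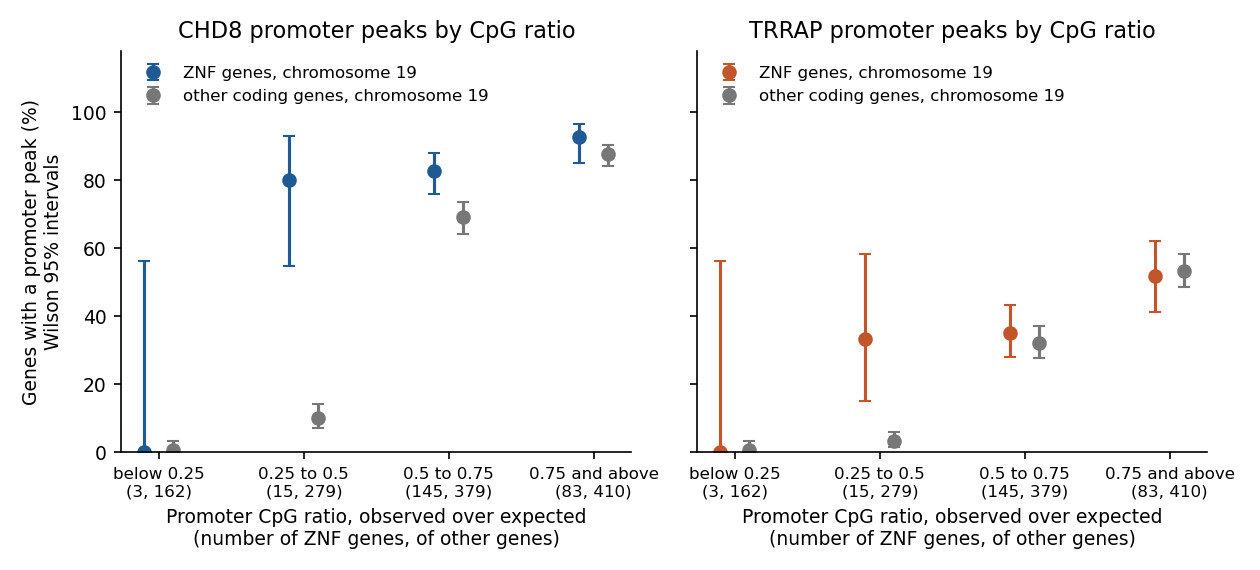
Share of promoters with a CHD8 peak (left) or a TRRAP peak (right), in percent, by CpG ratio of the promoter, for the zinc finger genes (colour) and the other coding genes of chromosome 19 (grey), with Wilson 95% intervals. The groups stand farthest apart between 0.25 and 0.5, at 80.0% against 10.0% for CHD8 and 33.3% against 3.23% for TRRAP.

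TRRAP was also compared at like CHD8 strength, by the place of the strongest promoter peak in the CHD8 list, divided by rank into 3 equal parts. In the top part, TRRAP was present at 58.8% of 119 zinc finger promoters, 58.6% of 396 others on the chromosome, 68.9% of the zinc finger promoters elsewhere and 70.7% over all coding genes (difference from the last -11.9 points, -20.9 to -3.38). In the middle part the shares were 32.8% of 61 and 49.1% of 171, a difference of -16.3 points (-29.2 to -1.82), with 53.7% over all coding genes (-20.9 points, -31.5 to -8.33). In the lowest part they were 27.6% of 29 and 27.7% of 83, with 32.5% over all coding genes. The zinc finger promoters elsewhere had TRRAP at 42.6% of 68 in the middle part and at 29.4% of 17 in the lowest. In the middle part their interval (31.6 to 54.5%) overlapped that of the zinc finger promoters of chromosome 19 (22.3 to 45.3%).

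The shares of KRAB and other zinc finger genes with CHD8 were within counting error of each other. A CHD8 peak lay at 177 of 207 genes with the KRAB word (85.5%) and at 32 of 39 without it (82.1%), a difference of 3.46 points (-7.04 to 18.7). The peaks of genes without the word were stronger and wider, with a median fold of 18.8 and width of 863 bp against 11.5 and 571 bp. TRRAP was present at 79 of 207 (38.2%) and 20 of 39 (51.3%), a difference of -13.1 points (-29.3 to 3.42) that reached across 0. By number of finger words, TRRAP was found at 26 of 46 genes with 8 or fewer (56.5%). The share was 38.0% with 9 to 12, 34.7% with 13 to 16 and 37.0% with 17 or more. These upper bins, joined in a later step that was not planned, held TRRAP at 73 of 200 genes (36.5%). The difference was 20.0 points (4.18 to 34.7), and its interval does not allow for the choice of the cut. CHD8 varied little by finger number, between 82.7% and 87.0% over 4 bins. Over all coding genes CHD8 was at 55.9% of the promoters and TRRAP at 34.9%. The TRRAP share of the genes with the KRAB word (interval 31.8 to 44.9%) was thus near that background. So was that of the genes with 9 or more finger words (30.1 to 43.4%).

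The 13 genes with a coding start on the opposite strand within 1 kb all had CHD8 (interval 77.2 to 100.0%), and 8 of them had TRRAP (35.5 to 82.3%). The 233 zinc finger genes without such a start had 84.1% and 39.1%, which lay within these intervals. Over all coding genes the shares were 55.9% and 34.9%. Genes that start close together can share a peak, and 5 CHD8 peaks and 2 TRRAP peaks touched the promoters of 2 or more zinc finger genes. A promoter can also hold several peaks: 25 genes had 2 CHD8 peaks, 12 had 2 TRRAP peaks and 1 had 3. The distinct peaks numbered 229 for CHD8 over 209 genes and 111 for TRRAP over 99 genes.

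Along the chromosome, starts at most 250 kb apart were joined, which gave 13 clusters of at least 5 genes with 221 members in all. CHD8 was present at every gene of clusters 4, 5, 7, 8 and 11, numbered from the short-arm end, and at 24 of 25 in cluster 3 (ZNF653 to ZNF791) and 40 of 43 in cluster 13 (ZNF264 to ZNF446). TRRAP varied more. It was present at 7 of 7 genes in cluster 11 (ZNF628 to ZNF581), none of which held the KRAB word. In cluster 8 (ZNF566 to ZNF573), where 22 genes held the word, TRRAP was present at 13 of 24. In cluster 9 (ZNF575 to ZNF180), where 19 genes held the KRAB word, it was present at 3 of 23 genes (13%, 4.54 to 32.1%) although CHD8 was at 18 of them. Cluster 10 (ZNF577 to ZNF331), where 37 genes held the word, had CHD8 at 30 and TRRAP at 17 of 38 genes. In cluster 1 (ZNF554 to ZNF77) all 5 genes held the word and 4 had TRRAP.

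Cluster 6, from ZNF100 to ZNF91, stood apart from its neighbours. CHD8 was present at 5 of its 14 promoters (35.7%, 16.3 to 61.2%), while cluster 4 had 8 of 8 and cluster 5 had 11 of 11. The 5 occupied genes, ZNF100, ZNF43, ZNF730, ZNF724 and ZNF91, all carried both peaks. The 9 unoccupied genes (ZNF208, ZNF257, ZNF676, ZNF729, ZNF98, ZNF492, ZNF99, ZNF723 and ZNF728) are consecutive, and none had CHD8 at any annotated start. They lie in a stretch of 1.22 Mb (chr19:21852309-23075093) with 0 CHD8 peaks and 0 TRRAP summits, in which these 9 are the only coding starts. It is the third longest gap between CHD8 peaks on the chromosome, and at its ends CHD8 peaks of folds 26.5 and 16.4 lie at other annotated starts of ZNF43 and ZNF730. This run was singled out after its values were seen.

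Sequence copy number moved with the run. The share of single-copy 32-base words in the promoter window was 64.8 to 75.9% in the 9 genes and 77.6 to 88.1% in the 5 occupied genes of the cluster, and its part in the result was not tested. In cluster 5, where every promoter had CHD8, the share was 66.9 to 88.8%, and 4 of the 11 genes were at or below 75.9%. ZNF738 had the lowest, 66.9%, with CHD8 at a fold of 12.4 and TRRAP at 7.69.

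Many promoters of these clusters resembled one another. Aligned end to end with the ZNF91 promoter over the same bases around the start, the occupied genes of clusters 4 to 6 other than ZNF91 itself (23 genes) had a median identity of 79.0% (52.1 to 83.5%), and the 9 unoccupied genes had 75% (48.0 to 86.0%). The unoccupied ZNF208 had the highest identity of all, 86.0%, above the occupied ZNF431 (83.5%) and ZNF93 (83.3%). At least 1 CCAAT was found in all 23 occupied promoters and in 8 of the 9 unoccupied ones, and 2 or more in 19 and 5. By contrast the ZNF274 promoter, from cluster 13, had 46.7% identity with that of ZNF91. The RefSeq promoters of ZNF91 (chr19:23395422-23395721, minus strand), ZNF431 (chr19:21141790-21142089, plus) and ZNF208 (chr19:22010894-22011193, minus), drawn as before with GGGCGG and CCAAT in capitals, are shown to compare occupied copies, the first pair, with an unoccupied one.
ZNF91: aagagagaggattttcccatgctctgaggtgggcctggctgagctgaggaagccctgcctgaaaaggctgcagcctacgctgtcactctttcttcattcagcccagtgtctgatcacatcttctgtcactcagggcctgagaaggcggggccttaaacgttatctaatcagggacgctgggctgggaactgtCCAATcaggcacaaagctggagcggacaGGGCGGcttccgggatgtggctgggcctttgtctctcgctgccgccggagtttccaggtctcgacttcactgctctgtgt
ZNF431: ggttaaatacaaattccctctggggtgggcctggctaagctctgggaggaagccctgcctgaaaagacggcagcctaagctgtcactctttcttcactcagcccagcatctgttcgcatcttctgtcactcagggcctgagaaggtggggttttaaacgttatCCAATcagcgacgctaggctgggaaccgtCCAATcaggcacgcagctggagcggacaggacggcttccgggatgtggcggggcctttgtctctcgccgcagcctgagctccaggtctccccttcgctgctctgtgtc
ZNF208: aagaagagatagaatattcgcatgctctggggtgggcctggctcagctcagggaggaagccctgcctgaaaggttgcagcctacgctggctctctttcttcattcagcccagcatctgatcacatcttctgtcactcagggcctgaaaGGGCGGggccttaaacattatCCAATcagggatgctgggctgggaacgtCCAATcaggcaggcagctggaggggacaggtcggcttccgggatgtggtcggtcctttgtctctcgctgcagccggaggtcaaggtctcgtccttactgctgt
In ZNF91 the TRRAP summit fell at base 222, within its GGGCGG match and after its only CCAAT. The CHD8 summit of ZNF91 lay outside the bases shown. ZNF431 and ZNF208 each held CCAAT in 2 places, and the CHD8 summit of ZNF431 fell at base 280.

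Of the 37 genes without CHD8 at the canonical start, 4 had it at another annotated start (ZNF404, ZNF114, ZNF83 and ZNF331). For all 37, the nearest CHD8 peak lay a median of 38.4 kb away (25th to 75th percentile 25.5 to 77.8 kb). Beyond the 9 of cluster 6, 8 were in cluster 10 and 5 in cluster 9. Low CpG content did not mark all of them. The most CpG-rich promoters with neither peak belonged to ZNF667 (CpG ratio 0.985), ZNF296 (0.901), ZNF331 (0.850), ZNF471 (0.839) and ZNF541 (0.823). ZNF296 is best known from pluripotent cells and ZNF541 from germ cells. Single-copy words made up 90.9 to 100.0% of these 5 promoter windows. The ZNF667 promoter (chr19:56477296-56477595, minus strand, RefSeq on GRCh38.p14) is shown as an unoccupied CpG-rich example, with 1 CCAAT and 1 GGGCGG in capitals.
ZNF667: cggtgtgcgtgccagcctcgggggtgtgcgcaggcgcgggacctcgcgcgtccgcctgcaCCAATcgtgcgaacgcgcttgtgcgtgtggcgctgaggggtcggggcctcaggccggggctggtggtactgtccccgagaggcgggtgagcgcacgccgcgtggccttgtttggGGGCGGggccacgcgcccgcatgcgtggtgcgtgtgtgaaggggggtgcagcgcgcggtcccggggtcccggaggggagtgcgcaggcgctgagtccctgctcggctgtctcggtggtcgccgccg

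Several short sequence words differed in frequency from other promoters. The ETS word CCGGAAGT was found on either strand of the window from 250 bases before to 50 after the start in 48 of 246 zinc finger promoters (19.5%, 15.0 to 24.9%), in 6.26% of the other promoters of the chromosome (difference 13.3 points, 8.54 to 18.8) and in 6.14% of all coding promoters. CCAAT was found in 52.8%, against 37.2% (15.7 points, 8.88 to 22.4) and 36.1%. The E-box CACGTG, the word bound by MYC, was rarer than in the rest of the chromosome, at 3.66% against 9.35% (-5.69 points, -8.15 to -2.20) and 8.76%. The SP word GGGCGG was about as frequent, at 67.5% against 66.4% (1.06 points, -5.55 to 7.22) and 61.3%, but among promoters with CHD8 it was less frequent, at 67.0% against 82.5% (-15.5 points, -22.6 to -8.70). Against the zinc finger genes elsewhere the difference was 5.77 points (-0.709 to 12.3) for the ETS word, 10.9 points (2.17 to 19.3) for CCAAT, -2.07 points (-5.97 to 1.79) for the E-box and 5.65 points (-2.67 to 13.8) for the SP word. The E2F words are short and rare. TTTGGCGC was found in 3.66% of the zinc finger promoters (9 of 246), 0.976% of the others and 0.864% of all. Its difference was 2.68 points (0.816 to 5.86) from the others on the chromosome and 3.28 points (0.823 to 6.44) from the zinc finger genes elsewhere. TTTCCCGC was found in 1.63%, 3.33% and 2.23%, a difference of -1.71 points (-3.23 to 0.919) from the others on the chromosome. ACTACAA, part of the ZNF143 word, stood at 5.69%, 3.33% and 2.99%. The NRF1 word stood at 3.25%, 2.52% and 1.69%, and the YY1 word at 1.22%, 2.76% and 1.43%.

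The ETS word went with CHD8 peaks that lacked TRRAP. It was found in 33 of 111 promoters with CHD8 alone (29.7%, 22.0 to 38.8%) and 11 of 98 with both (11.2%, 6.38 to 19%). The share with both was near that of all coding promoters with CHD8 (10.3%) and of the other chromosome 19 promoters with CHD8 (11.4%). Among the 209 promoters with CHD8, TRRAP was present at 25% of 44 with the word and 52.7% of 165 without it, a difference of -27.7 points (-40.6 to -11.4). No word but this one gave an interval that stayed on one side of 0 in that comparison of 9 words. For CCAAT the difference was -12.5 points (-25.5 to 0.998) and for GGGCGG 13.7 points (-0.623 to 27.0). Among the other coding genes of the chromosome, 96.1% of 77 with the ETS word had CHD8 and 31.2% had TRRAP. There too, most promoters with the word had CHD8 without TRRAP. Of the 1153 without it, 50.0% had CHD8 and 28.4% had TRRAP. These are shares of all promoters with or without the word. The share of TRRAP among those with CHD8 was not computed by word for these other genes. Zinc finger genes with CHD8 alone also had weaker CHD8 peaks (median fold 10.6 against 15.3 with both), and the part of peak strength was not tested.

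Within the genes, away from promoters, peaks were few. After removal of every peak that overlapped a coding promoter, 3 of 246 zinc finger genes (1.22%, 0.416 to 3.52%) had a CHD8 summit in the span of the canonical transcript, where 12.3% of all coding genes and 179 of 1230 other genes of the chromosome (14.6%) did. Per length, the 3 peaks in 5.25 Mb came to 0.0571 per 100 kb (exact Poisson interval 0.0118 to 0.167), against 1.01 (0.884 to 1.15) in the other genes of the chromosome, 0.362 in all coding genes and 0.366 in the zinc finger genes elsewhere. For TRRAP, 1 of 246 genes (0.407%) had such a peak, with 7.60% of all coding genes and 8.13% of the other chromosome 19 genes, and the density was 0.0190 per 100 kb against 0.609 in those other genes, 0.200 in all coding genes and 0.192 in the zinc finger genes elsewhere. The zinc finger gene bodies differed from the others in base composition, with 42.4% GC against 51.3%, and little in copy number, with 77.8% against 79.8% single-copy words. The part of GC content in the result was not tested.

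All 4 body peaks were intronic. In ZNF114, a CHD8 peak (chr19:48271165-48272067, fold 16.8) had its summit 10 bp from another annotated start of the gene. In ZNF616, a TRRAP peak (chr19:52138769-52138919, fold 8.17) lay 31 bp from another start and overlapped a CHD8 peak. In ZNF69, a CHD8 peak (chr19:11890099-11890293, fold 7.10) had a summit of 2 genomic copies. In ZNF536, a weak CHD8 peak (chr19:30450158-30450420, fold 7.54) lay 77873 bp into the gene, far from any of its annotated starts. When the span of all transcripts replaced the canonical one, the numbers rose to 15 genes for CHD8 and 7 for TRRAP. Of the 19 CHD8 peaks then counted, 13 were within 1 kb of a start annotated for the same gene, as were 6 of the 8 TRRAP peaks.

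No peak was counted in the last exons, which hold the finger arrays. The number was 0 of 246 genes for CHD8 and for TRRAP (upper Wilson limit 1.54%), in 0.917 Mb of last exon, which allows a density of up to 0.402 per 100 kb (exact Poisson limit). Over all coding genes 1.10% had a CHD8 peak and 0.550% a TRRAP peak there, so that 0 of 246 is near this background. The other chromosome 19 genes had CHD8 at 22 of 1194 last exons (1.84%, 1.68 peaks per 100 kb, 1.07 to 2.52) and TRRAP at 12 (1.01%, 1.02 per 100 kb). The differences were -1.84 points (-2.77 to -0.184) for CHD8 and -1.01 points (-1.75 to 0.591) for TRRAP. In all coding genes the densities were 0.570 and 0.292 per 100 kb. The zinc finger genes elsewhere had CHD8 at 1 of 260 last exons (0.103 per 100 kb) and TRRAP at 0 of 260. The zinc finger last exons had 83.3% single-copy words and 41.2% GC, and those of the other genes 90.2% and 54.5%, and the part of either in the result was not tested. The only peak that touched the last exon of a zinc finger gene at all was a CHD8 peak (chr19:55643400-55643803, fold 20.4) at the end of ZNF580, which lies at the promoter of the next gene, ZNF581.

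**Figure D5:**
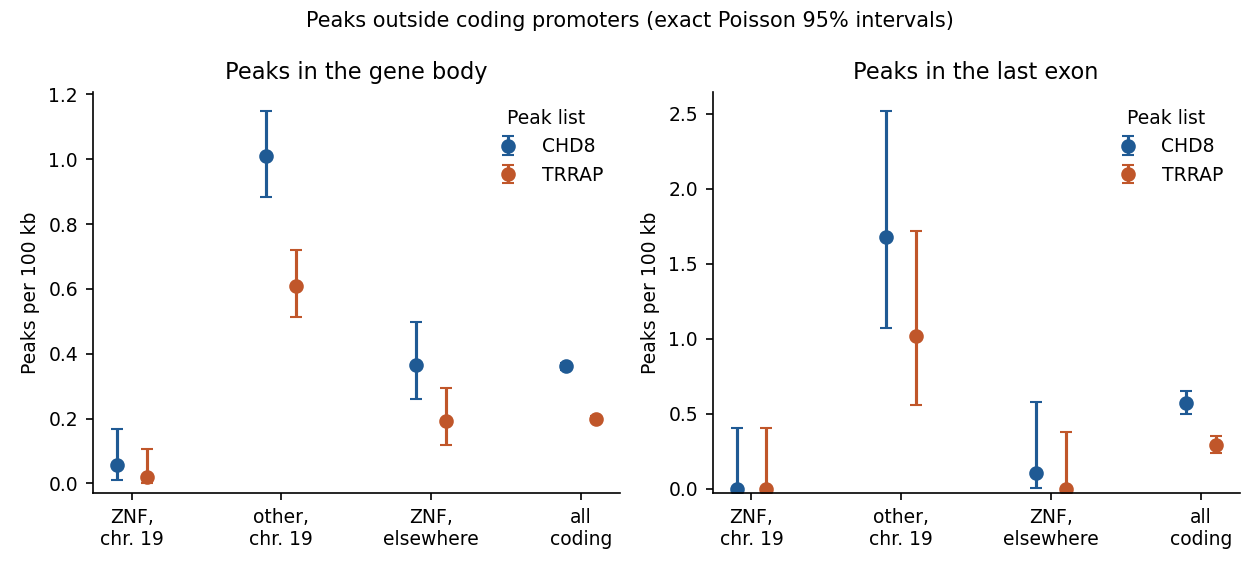
Peaks per 100 kb outside coding promoters, in gene bodies (left) and last exons (right), for CHD8 (blue) and TRRAP (orange) in 4 gene groups, with exact Poisson 95% intervals. The zinc finger genes of chromosome 19 stand at 0.0571 and 0.0190 in the body and at 0 in the last exon.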

How the data were processed

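ChIP-seq of CHD8, TRRAP and IgG was performed once each on H9-derived neural stem cells. Per the submitters' processing notes, HISAT2, MACS2 (2.1.1.20160309) and GRCh38 were used; the control, filters and read totals are not given in the sources used here, so depth is unknown. The deposited peak lists give a score, a fold (a linear ratio), and −log10 p and −log10 q values, as the authors' peak caller wrote them. Ranks within a list use −log10 q, then fold, width and position. All 84 (CHD8) and 88 (TRRAP) sequence names matched GRCh38, and 0 peaks ran past a sequence end. Coordinates count from 1.

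Overlap with GENCODE 44 promoters, bodies and last exons was computed in Python 3.11.15 (pandas 2.3.3, numpy 2.4.6, biopython 1.88, scipy 1.17.1, matplotlib 3.10.9, numba 0.67.0, pysam 0.24.0), and these steps were tested on simulated peaks. With 1 library per antibody no test was run, and shares carry Wilson, differences Newcombe and densities exact Poisson intervals. Copies of 32-base words were counted on both strands of 194 reference sequences. KRAB and finger words were searched in proteins translated from the canonical coding exons of the reference genome. RefSeq promoter entries matched 216 of the 246 genes.

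Named genes were the 5 highest CHD8 and 5 highest TRRAP folds at promoters, genes with TRRAP but no CHD8, body peaks, the 5 most CpG-rich genes with neither peak and a panel of 8. The members and lists were chosen with earlier results of these data known. The promoter identities, the cluster 6 run and the split of TRRAP by sequence word were added after the data were seen. The cut of TRRAP by finger number and its comparison at like CHD8 strength were not in the plan either. Alternatives covered windows, starts, rank limits, list length, copy number and body definitions.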

Additional observations from a re-analysis of the deposited data

How the results depend on the processing

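Of 110 alternative values, 88 stayed within the interval of the main value or within 1.5 times of a count, 22 moved and 0 reversed direction. With only the peaks above the median rank of each list, CHD8 was at 64.6% of the promoters (23.7 points above the other chromosome 19 genes), TRRAP at 17.5% (1.22 points above them) and TRRAP at 21.4% of those with CHD8. Body peaks then numbered 0.296 (CHD8) and 0.331 (TRRAP) per 100 kb in the other genes, 1 zinc finger gene had a CHD8 body peak, 0 had a TRRAP one (0 per 100 kb), and last exon densities of the other genes were 0.438 for CHD8 and 0.438 for TRRAP. With the CHD8 list shortened to the length of the TRRAP list, CHD8 was at 71.1% of the promoters, 26.2 points above the other genes. Counting every peak outside the own promoter gave the other genes 1.33 (CHD8) and 0.747 (TRRAP) body peaks and 2.85 CHD8 last exon peaks per 100 kb, and gave 1 zinc finger gene a CHD8 last exon peak. The span of all transcripts gave the zinc finger genes 0.264 CHD8 peaks per 100 kb in 15 genes and 0.111 TRRAP peaks in 7. No paired analysis was possible because each antibody had 1 library. Unknown depth limits any statement about promoters without a peak.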
